A study of Mus musculus with 8 samples.

Results

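Complement and related serine proteases were examined in mouse Paneth cells as a group of 8 genes, namely Cfi, C3, Cfb, Cfd, C4b, Cd55, Cd46 and Habp2, out of 55414 gene identifiers in the count table. The 8 genes were chosen by name with earlier results of these same data in view, so their values between diets are given as a description and not as independent evidence. The RNA came from Paneth cells sorted by flow cytometry out of small intestine, taken from 8 C57BL/6J mice, all without a transgene or an injected agent in the labels. A control group of 4 mice received standard chow and a zinc deficient group of 4 mice received zinc depleted chow, both for 7 weeks and freely available. The age and sex of each mouse were not stated in the labels. Every mouse gave 1 library of polyadenylated RNA, and the comparison asks which genes differ in Paneth cells when zinc is withheld from the diet.

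Complement is a set of plasma and membrane proteins that marks microbes and damaged cells for removal. The classical and lectin routes act through C4b and C2, the alternative route acts through Cfb and Cfd, and all of them converge on C3, which attaches covalently to a surface once it is cleaved. Regulators hold this cascade in check: factor I (Cfi) is a serine protease that cuts C3b and C4b to inactive forms, but only with a cofactor such as C4b-binding protein (C4bp) or Cd46. Cd55 speeds the decay of the convertases that cleave C3. Habp2, the hyaluronan-binding protein also called factor VII activating protease, is a secreted serine protease that is tied to coagulation. Most of these proteins come from the liver, whereas Paneth cells are secretory epithelial cells at the base of the small intestinal crypts that are best known for antimicrobial peptides.

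Within the group, 4 genes encode serine proteases and 2 encode thioester proteins, and the short stretches of coding sequence that carry these activities are shown because they are what joins genes of very different abundance into a family. Positions refer to GRCm39 with GENCODE M39 transcripts, and letters run 5′ to 3′ on the coding strand. In the first 4 lines capitals mark the 18 bases that code for the conserved motif around the catalytic serine.
Cfi: tgcaaaGGAGACTCCGGAGGCCCCttggtc
Habp2: tgccagGGTGACTCGGGGGGCCCTctaacc
Cfb: tgcaaaGGAGATTCCGGGGGCCCTctcatt
Cfd: tgcaggGGAGACTCCGGCAGCCCTctagtg
In the next 2 lines capitals mark the 15 bases that code for the thioester, the reactive bond with which C3 and C4 bind to surfaces.
C3: cccgcaGGCTGTGGGGAACAGaacatg
C4b: ccccagGGCTGTGCAGAGCAAaccatg

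The Cfi stretch lies in exon 14 of 14 at chr3:129668596-129668625 on the plus strand. The Habp2 stretch spans an intron between exons 11 and 12 of 12 at chr19:56306299-56307926 on the plus strand. The Cfb stretch joins exons 16 and 17 of 18 at chr17:35075883-35075986 on the minus strand, in the transcript with the longest coding sequence, since the coding sequence of the transcript marked as canonical does not hold the motif. On the plus strand, the Cfd stretch joins exons 4 and 5 of 5 at chr10:79728078-79728282. The thioester stretches both lie in exon 24 of 41 on the minus strand, at chr17:57522838-57522864 in C3 and at chr17:34953449-34953475 in C4b. Among the 4 protease stretches, pairs were identical at 20 to 23 of 30 bases, with 23 for Cfi and Cfb. The stretches of C3 and C4b were identical at 19 of 27 bases. The level of these protease genes ranged from 502 CPM (counts scaled to a library of 1000000) on average for Habp2 to 0 counts for Cfd.

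The count totals per library ranged from 8557690 to 12648005. Levels are given as CPM scaled by the trimmed mean of M-values (TMM), which allows for the large share of the library taken by defensin transcripts. TMM factors ran from 0.719 to 1.57, and the library of control replicate 1 had the factor of 1.57. The labelled cell type was borne out by its markers, since the 10 Paneth cell markers, Lyz1 and Defa24 among them, summed to between 298154 and 616588 scaled CPM on control chow and to between 482905 and 855101 on zinc depleted chow, with the lowest sum again in control replicate 1. All 10 had a log2 fold change above 0, with a median of 0.45. Ang4 and Mptx2 did not overlap between diets, against 6.09% of all genes tested. None of the 10 passed the edgeR test, against 0.403% of all genes tested. Of them, 3 had an unadjusted p under 0.05, against 10.5% of all genes tested, and 2 passed with DESeq2, against 1.34%. Their part in the values of the group was not tested. The fibroblast and vessel list had counts for 2 of 9 genes, and Col1a1, Dcn and Cdh5 were at 0. The lymphocyte list had counts for 3 of 8 genes, with Cd3e at 0 and with 32 of the 44 counts of Ptprc in zinc deficient replicate 3. Tuft cell markers, with counts for 6 of 6 genes, summed to 25 to 62.7 scaled CPM on control chow and 12.3 to 238 on zinc depleted chow, and Dclk1 was highest, at 99.6, in that same mouse. Enterocyte markers, with counts for 9 of 9 genes, summed to 110.5 to 271 scaled CPM on control chow and 98.9 to 224 on zinc depleted chow. Enteroendocrine markers, with counts for 7 of 7 genes, summed to 21.2 to 41.2 on control chow and 15.7 to 41.3 on zinc depleted chow. The adipocyte list had counts for 2 of 6 genes, with Adipoq at 0. In the macrophage list, with counts for 7 of 10 genes, Adgre1 and Csf1r were at 0, and Lyz2 and Cd14 were the genes that passed the filter on low counts. Their log2 fold changes were 0.64 ± 0.24 (SE) for Lyz2 and -1.35 ± 0.54 (SE) for Cd14, which was lower on zinc depleted chow without overlap. Both had an unadjusted p under 0.05, and neither passed with edgeR or DESeq2. Lyz2 averaged 35.2 scaled CPM, and its neighbour Lyz1 161368. Whether reads of Lyz1 were counted for Lyz2 was not tested. In these bulk samples fewer cells of a type and less RNA per cell cannot be told apart.

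Cfi was higher on the zinc deficient diet and was the gene of the group that passed the test across all genes. Cfi (ENSMUSG00000058952, chr3:129629533-129668981, plus strand) measured 39.9, 46.3, 44.6 and 44.8 scaled CPM in control replicates 1 to 4. In the zinc deficient mice it measured 83.1, 90.0, 85.6 and 113 scaled CPM. The control mice lay close together, and every zinc deficient mouse was above every control mouse. The mean level was 43.9 ± 2.80 CPM (SD, n = 4) on control chow and 93.0 ± 13.8 CPM (SD, n = 4) on zinc depleted chow, a log2 fold change of 1.08 ± 0.14 (SE) or 2.12-fold. In edgeR's quasi-likelihood test, adjusted after Benjamini and Hochberg over 10911 genes, Cfi was the single gene of the group past the threshold of 0.05, 1 of the 5 that passed the filter on low counts. Over all genes tested, 0.403% passed in either direction and 0.147% passed as higher on the zinc deficient diet. Scaling by library size alone gave a log2 fold change of 0.73 for Cfi and ended the call, while the median of all genes moved to -0.37 under that scaling. Without any 1 of the 8 mice the log2 fold change stayed between 0.98 and 1.14, with the call kept each time.

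Goblet cell markers, listed here because the sorted fraction could hold neighbouring secretory cells, summed to 1509 to 3086 scaled CPM on control chow and to 2072 to 5047 on zinc depleted chow. Their highest sum was in zinc deficient replicate 4, where Cfi was also highest. In that mouse Muc2 (2433 CPM), Agr2 (1637) and Clca1 (174) had their highest values, while Fcgbp (111) and Zg16 (0.374) had their lowest values over the 8 mice and Tff3 (692) its lowest of that diet. Within diets, r between Cfi and the summed goblet markers was 0.80 over the 8 mice, whose libraries and scaling both measures share. It was the highest r of Cfi among the marker lists looked at. With the Paneth cell markers r was 0.44, and with the hepatocyte and pancreas markers -0.69. Values of this size arose for other genes of the group too, such as 0.67 for Habp2 with goblet markers and -0.90 for C4b with hepatocyte and pancreas markers. None of the 6 goblet markers passed the test, 0 had an unadjusted p under 0.05, and 0 passed with DESeq2. Of the 7 markers of stem and transit amplifying cells, Top2a passed the edgeR test as lower on the zinc deficient diet. Over all genes tested, 0.403% passed in either direction. Olfm4 and Top2a passed with DESeq2, against 1.34% of all genes, and 5 of the 7 had an unadjusted p under 0.05, against 10.5%. The 7 markers summed to 1382 to 1975 scaled CPM on control chow and to 609 to 1164 on zinc depleted chow, without overlap. Most of each sum was Olfm4, at 1135 to 1715 on control chow and 443 to 956 on zinc depleted chow. Taken singly, Lgr5, Olfm4 and Top2a did not overlap, against 6.09% of all genes tested. Smoc2 and Pcna overlapped, with log2 fold changes of -0.10 ± 0.14 (SE) and -0.05 ± 0.15 (SE). Within diets, r between Cfi and this sum was -0.51. The part of either list in the Cfi values was not tested.

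**Figure D1:**
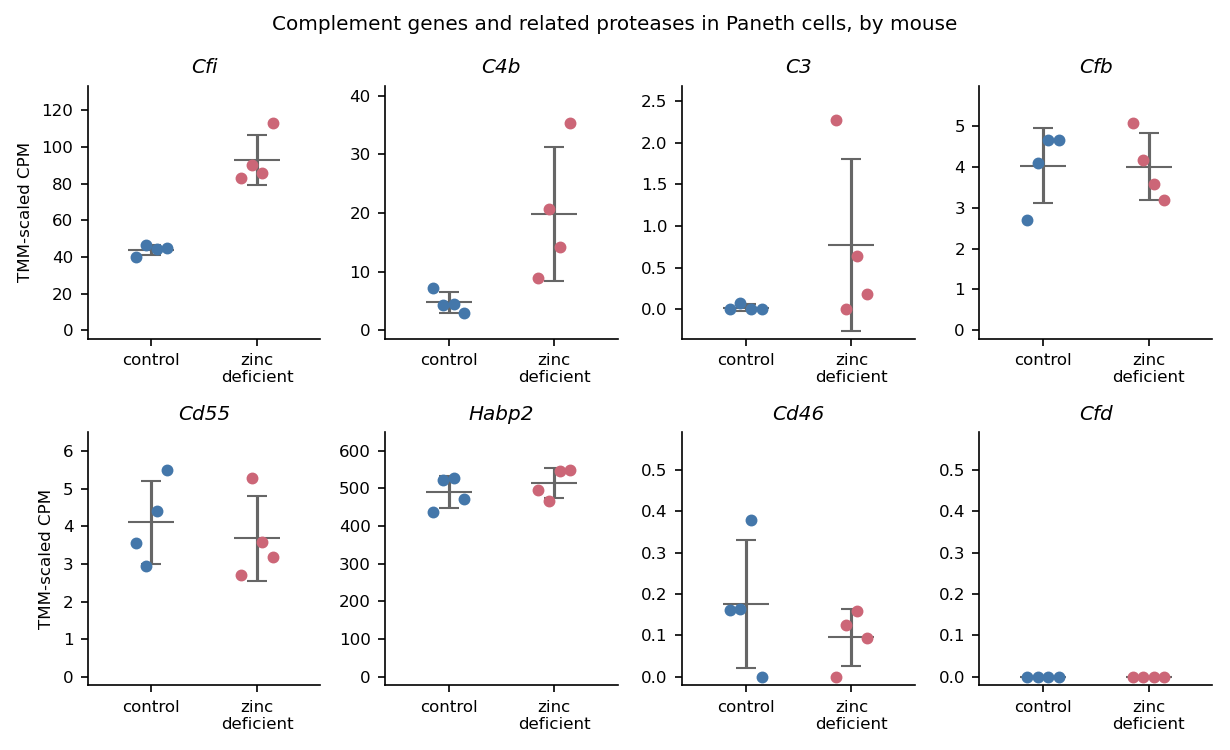
Scaled CPM (vertical axes, 1 scale per gene) of the 8 genes in each of 4 control mice (blue) and 4 zinc deficient mice (red), with the mean and SD as grey bars. Cfi and C4b are the genes whose values in the diets do not overlap, and Cfd is at 0 in all 8 mice.

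C4b, the mouse gene for complement component C4 and a substrate of factor I, had the largest fold change among the genes of the group that passed the filter. C4b (ENSMUSG00000073418, chr17:34947354-34962912, minus strand) measured 7.12, 4.34, 4.54 and 2.96 scaled CPM in control replicates 1 to 4. In the zinc deficient mice it measured 8.85, 20.7, 14.2 and 35.3 scaled CPM. Again the diets did not overlap, but the zinc deficient mice were spread over a wide range, with replicate 4 highest and replicate 1 close to the highest control mouse. The mean was 4.74 ± 1.73 CPM (SD, n = 4) on control chow and 19.8 ± 11.4 CPM (SD, n = 4) on zinc depleted chow, with a log2 fold change of 2.02 ± 0.41 (SE). This did not pass the edgeR threshold. C4b did pass with DESeq2, without the filter on low counts, without the robust option, and when zinc deficient replicate 1, 3 or 4 was left out. The log2 fold change then ran from 1.58 without zinc deficient replicate 4 to 2.27 without zinc deficient replicate 1. With DESeq2, which called 1.34% of all genes tested, Cfi and C4b were the genes of the group that passed.

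Values of the diets did not overlap for 2 of the 5 genes that passed the filter, Cfi and C4b, against 6.09% of all genes tested. The same 2 genes had an unadjusted p under 0.05, against 10.5% of all genes. These shares follow from how the genes were chosen and say nothing further. The spread between mice of a diet was unlike in the pair: the pooled SD of the log2 level within diets was 0.16 for Cfi and 0.67 for C4b. Of 4609 genes within 2-fold of its mean level, 98.9% had a smaller spread than C4b. For Cfi, 28.3% of 1506 such genes did.

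The thioester gene C4a, a close copy of C4b 65156 bases away on the same strand, held 4 counts over all 8 mice against 1050 for C4b. A 70-base window taken from the C4b transcript was absent from C4a at 74.8% of positions, so reads from the rest could have been given to either gene, and the C4b values are uncertain to that extent. The other genes of the classical and lectin routes were near the detection limit. Of the 18 listed besides C4b, 10 had no count in any mouse, among them C1qc, Masp1 and Masp2. C2, the protease that joins C4b in a convertase, was the gene among them that passed the filter, at 0.635 to 1.89 scaled CPM with a log2 fold change of 0.33 ± 0.48 (SE). Fcna, a lectin that can start the lectin route, ranged from 0.108 to 1.67 scaled CPM and did not pass the filter.

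C3, the central component on which all routes converge, was almost absent from control Paneth cells. C3 (ENSMUSG00000024164, chr17:57510964-57535155, minus strand) had raw counts of 0, 1, 0 and 0 in control replicates 1 to 4. It had raw counts of 21, 0, 8 and 2 in zinc deficient replicates 1 to 4. Counts were thus seen in 3 of 4 zinc deficient mice and 1 of 4 control mice, and the diets overlapped at 0. C3 did not pass the filter on low counts. Its ratio between diets was 36.9 with a 95% exact counting interval from 6.15 to 1504, and 15.5 (2.20 to 671) without zinc deficient replicate 1. These intervals cover counting error and not the spread between mice.

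Zinc deficient replicate 1, the mouse with the most C3 counts, also had the most counts of 2 genes that mark the liver. Alb, which encodes serum albumin, had 36 raw counts in that mouse and 0 to 4 in each of the other 7 mice. Fgb, which encodes a chain of fibrinogen, had 32 raw counts there and 0 to 5 elsewhere. Of the other genes of the list in that mouse, Ttr had 30 raw counts against 54 in control replicate 1, and Apoa2 had 8 against 9 in zinc deficient replicate 3. The whole hepatocyte and pancreas list had counts for 5 of 8 genes, with Cpa1, Cela2a and Pnlip at 0, and summed to 3.29 to 5.51 scaled CPM on control chow and 1.22 to 11.5 on zinc depleted chow. Zinc deficient replicate 3 had 8 counts of C3 with 4 of Alb and 0 of Fgb. The part of liver RNA in the C3 counts was not tested.

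**Figure D2:**
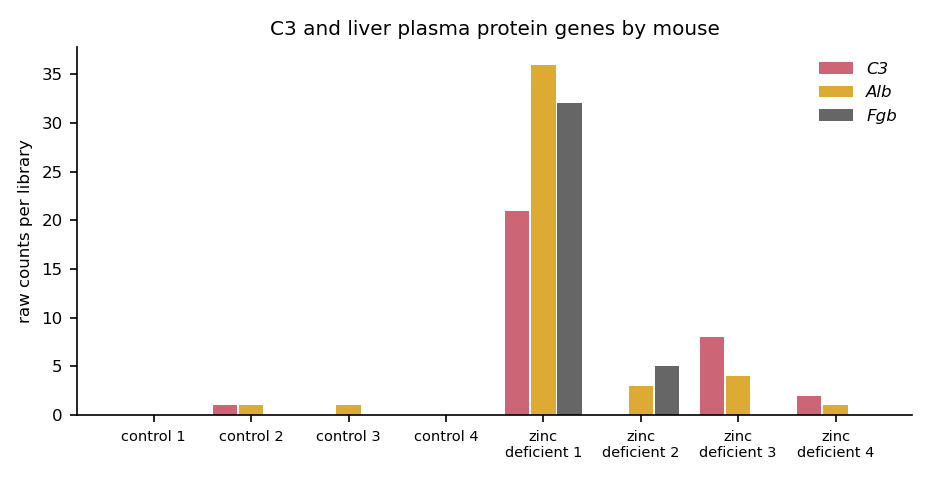
Raw counts per library (vertical axis) of C3, Alb and Fgb in each of the 8 mice. Zinc deficient replicate 1 has the highest count of each gene, at 21, 36 and 32.

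The proteases of the alternative route differed widely from each other. Cfb (ENSMUSG00000090231, chr17:35074852-35081559, minus strand), which supplies the catalytic subunit of the alternative convertase, measured 2.7, 4.10, 4.66 and 4.66 scaled CPM in control replicates 1 to 4. In the zinc deficient mice it measured 5.07, 4.17, 3.59 and 3.18 scaled CPM. The diets overlapped, with the lowest value in control replicate 1 and the highest in zinc deficient replicate 1, and the log2 fold change was 0.00 ± 0.28 (SE). Cfb lies across Nelfe, which is on the opposite strand and shares 3865 bases with it. Nelfe held 1520 counts against 340 for Cfb, and nothing read here states whether counting used strand. Gm20547, annotated as protein coding, shares 6172 bases with Cfb on the same strand and held 0 counts. How reads in shared bases were counted is not given either, so the Cfb level is uncertain.

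Cfd (ENSMUSG00000061780, chr10:79726668-79728496, plus strand), the protease that cleaves factor B once it is bound to C3b and a product of fat cells, had 0 counts in all 8 mice. Over 85938593 counts in total this allows a level of up to 0.0349 CPM, for counting error alone. Cfp, which encodes properdin, the stabiliser of the alternative convertase, had 11 counts over the 8 mice. No gene of the alternative route passed the edgeR test, with 1 of 4 genes above the filter, 0 at an unadjusted p under 0.05 and 0 with DESeq2. The shares over all genes tested were 0.403% by edgeR, 10.5% unadjusted and 1.34% with DESeq2, so 0 calls from 1 gene says little.

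The membrane regulators Cd55 and Cd46 were low. Cd55 (ENSMUSG00000026399, chr1:130366469-130390926, minus strand) measured 3.56, 2.95, 4.41 and 5.51 scaled CPM in control replicates 1 to 4. In the zinc deficient mice it measured 2.7, 5.30, 3.59 and 3.18 scaled CPM. The diets overlapped, and the log2 fold change was -0.15 ± 0.30 (SE). Cd55b, a neighbouring copy, held 20 counts against 335 for Cd55, and 92.3% of 70-base windows of the Cd55 transcript were absent from it.

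Cd46 (ENSMUSG00000016493, chr1:194719134-194774561, minus strand), a cofactor for factor I, had raw counts of 3, 2, 3 and 0 in control replicates 1 to 4. It had raw counts of 0, 1, 2 and 1 in the zinc deficient mice. No mouse had more than 3 counts, and the ratio between diets was 0.595 with a 95% exact counting interval from 0.131 to 2.22. A difference in Cd46 was not detectable at this depth. Cr1l, a mouse membrane regulator with decay and cofactor activity that lies 3041 bases from Cd46, was the most abundant of the 6 membrane regulators per length. Its values were 18.7 to 33.2 scaled CPM on control chow and 29.1 to 36.9 on zinc depleted chow, with overlap and a log2 fold change of 0.34 ± 0.17 (SE).

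Habp2 was the most abundant gene of the group. Habp2 (ENSMUSG00000025075, chr19:56275569-56309254, plus strand) measured 438, 523, 527 and 472 scaled CPM in control replicates 1 to 4. In the zinc deficient mice it measured 497, 466, 545 and 550 scaled CPM. The diets overlapped closely, with a mean of 490.2 ± 42.7 CPM (SD, n = 4) on control chow and 514 ± 40.2 CPM (SD, n = 4) on zinc depleted chow. The log2 fold change was 0.07 ± 0.17 (SE), and its pooled SD within diets of 0.12 on the log2 scale was below that of most genes at a like level, since 12.3% of 106 such genes had a smaller one. By level it ranked 57 among all genes, and by level per length 89. With library size alone as the scaling its log2 fold change was -0.26 and that of Cfb was -0.31, beside the median of all genes of -0.37.

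Levels can be compared between genes per kilobase of summed exons. On this scale Habp2 averaged 115 ± 9.29 scaled CPM per kb (SD, n = 8) and Cfi 28.2 ± 11.5. C4b followed with 2.02 ± 1.82, Cfb with 1.17 ± 0.237 and Cd55 with 0.660 ± 0.180. C3 was at 0.0765 ± 0.152, Cd46 at 0.0178 ± 0.0157 and Cfd at 0. Habp2 was above Cfi, and Cfi above C4b, in 8 of 8 mice, but C4b was above Cfb in 4 of 8 mice and C3 above Cd46 in 3 of 8 mice, so neither of these neighbours could be ordered. Cfb was above Cd55 in 8 of 8 mice by summed exon length but in 3 of 8 by the length of 1 transcript per gene, and this step depends on the length used.

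Pairs of genes of the group, namely a substrate and a protease, both thioester genes or both membrane regulators, were set beside each other within each mouse, as the difference in log2 level per length with 0.5 CPM added. The 4 pairs were picked with earlier results known, so the differences are a description with no test, and they cover both diets. C3 was below Cfb in 8 of 8 mice, by a mean log2 difference of -3.21 ± 0.83 (SD, n = 8). C3 was also below C4b in 8 of 8 mice, by -3.48 ± 1.32 (SD, n = 8). Cfi, the inactivating protease, was above its substrate C3 in 8 of 8 mice, by 7.56 ± 0.79 (SD, n = 8).

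The fourth pair held the membrane regulators, and Cd55 was above Cd46 in 8 of 8 mice, by 3.14 ± 0.41 (SD, n = 8). By diet, the C3 to Cfb difference was -3.70 ± 0.33 on control chow and -2.72 ± 0.93 on zinc depleted chow (SD, n = 4 each). The Cfi to C3 difference was 7.51 ± 0.10 and 7.60 ± 1.20 in the same order. Because C3 and Cd46 sit near 0, the added 0.5 CPM sets much of the size of these differences.

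**Figure D3:**
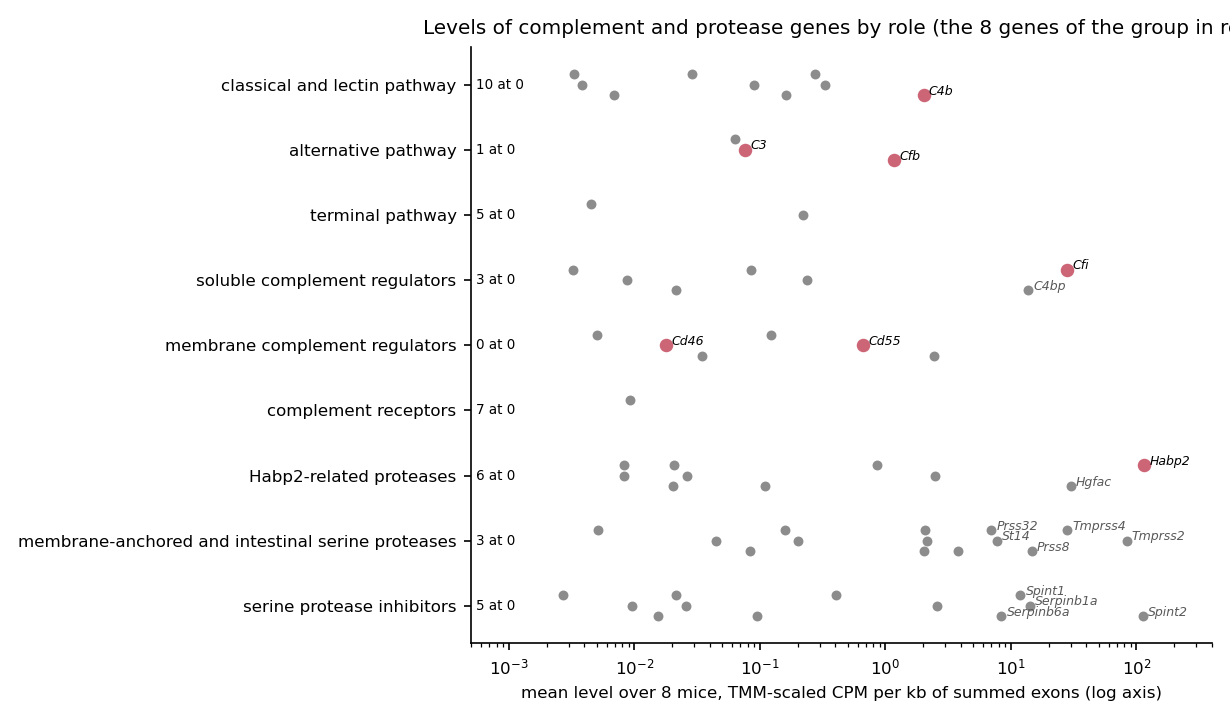
Mean level over 8 mice (horizontal log axis, scaled CPM per kb of summed exons) of complement and protease genes, in 1 row per role, with the 8 genes of the group in red and the number of genes at 0 on the left. Habp2 and Cfi stand at 115 and 28.2, while 7 of 8 complement receptors and 5 of 7 terminal genes are at 0.

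The rest of the complement system was read from lists of genes by role. Of 47 complement genes besides those of the group, 25 had no count in any mouse and 3 passed the filter, namely C2, C4bp and Cr1l. None of the 3 passed the edgeR test, 0 had an unadjusted p under 0.05, and 0 passed with DESeq2. Shares over all genes tested were 0.403%, 10.5% and 1.34% in the same order, so 0 calls from 3 genes says little. Their median log2 fold change was 0.33, beside -0.01 over all genes tested, which is a description of 3 genes and not a test. C4bp, a soluble cofactor with which factor I degrades C4b, measured 65.2, 98.1, 98.1 and 102 scaled CPM in control replicates 1 to 4. In the zinc deficient mice it measured 114, 121, 98.3 and 117 scaled CPM. Each zinc deficient value but that of replicate 3 was above all control values, and the log2 fold change was 0.31 ± 0.16 (SE).

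Cpn1, a subunit of the carboxypeptidase that inactivates anaphylatoxins, ranged from 0.468 to 1.83 scaled CPM. The terminal pathway, which forms the membrane attack complex, had counts for 2 of 7 genes, with 39 for C8g and 2 for Hc. The complement receptors had counts for 1 of 8 genes, with 5 for Itgam, and C3ar1, C5ar1 and Cr2 were at 0. None of these passed the filter.

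The protease lists held transcripts as abundant as Habp2. Hgfac, the activator of hepatocyte growth factor and a relative of Habp2, ranged from 96.4 to 144 scaled CPM with a log2 fold change of 0.09 ± 0.15 (SE). Proc, which encodes protein C, ranged from 5.61 to 10.7 scaled CPM with a log2 fold change of 0.05 ± 0.24 (SE). F2, which encodes prothrombin, measured 2.80, 2.21, 1.89 and 2.86 scaled CPM in control replicates 1 to 4 and 4.42, 7.83, 4.23 and 6.64 in the zinc deficient mice. The diets did not overlap for F2, with a log2 fold change of 1.22 ± 0.29 (SE). The adjusted p of F2 was 0.078 by edgeR and 0.0103 by DESeq2.

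Among membrane-anchored and intestinal serine proteases, Tmprss2 led with 511 to 577 scaled CPM on control chow and 586 to 867 on zinc depleted chow. These values did not overlap, but its log2 fold change of 0.37 ± 0.19 (SE) did not pass, with an adjusted p of 0.509 by edgeR. Tmprss4 ranged from 60.8 to 85.3 scaled CPM and Prss8, also called prostasin, from 22.6 to 34.3. Of the 17 genes in this list 9 passed the filter, 0 passed the edgeR test, 0 had an unadjusted p under 0.05 and 0 passed with DESeq2. Among all genes tested the shares were 0.403%, 10.5% and 1.34% in the same order. Values did not overlap for 1 of the 9, Tmprss2, against 6.09% of all genes tested.

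Inhibitors of serine proteases were present beside them. Spint2, a Kunitz-type inhibitor of membrane-anchored proteases, ranged from 497 to 843 scaled CPM. Its relative Spint1 ranged from 32.5 to 51.5 scaled CPM. Serpinb1a, an intracellular inhibitor of neutrophil proteases, ranged from 25.6 to 56.1 scaled CPM.

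Serpinb6a, another intracellular serpin, measured 43.5, 55.1, 56.7 and 60.9 scaled CPM in control replicates 1 to 4 and 63.3, 87.0, 68.0 and 76.4 in the zinc deficient mice. The diets did not overlap, and the log2 fold change of 0.45 ± 0.15 (SE) had an adjusted p of 0.249 by edgeR. Of the 17 inhibitors, 6 passed the filter, 0 passed the edgeR test, 3 had an unadjusted p under 0.05 and 0 passed with DESeq2. Over the complement and protease lists together, without the group, 21 of 95 genes passed the filter, 0 passed the edgeR test, 4 had an unadjusted p under 0.05 and 1, F2, passed with DESeq2. Their median log2 fold change was 0.24, and 18 of the 21 were above 0, beside -0.01 and 5374 of 10911 over all genes tested. The lists were chosen with earlier results of these data known. These values are thus a description, and a shift of the lists as a set was not tested. Of all genes tested, 0.403% passed the edgeR test, 10.5% had an unadjusted p under 0.05, 6.09% did not overlap between diets and 1.34% passed with DESeq2.

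**Figure D4:**
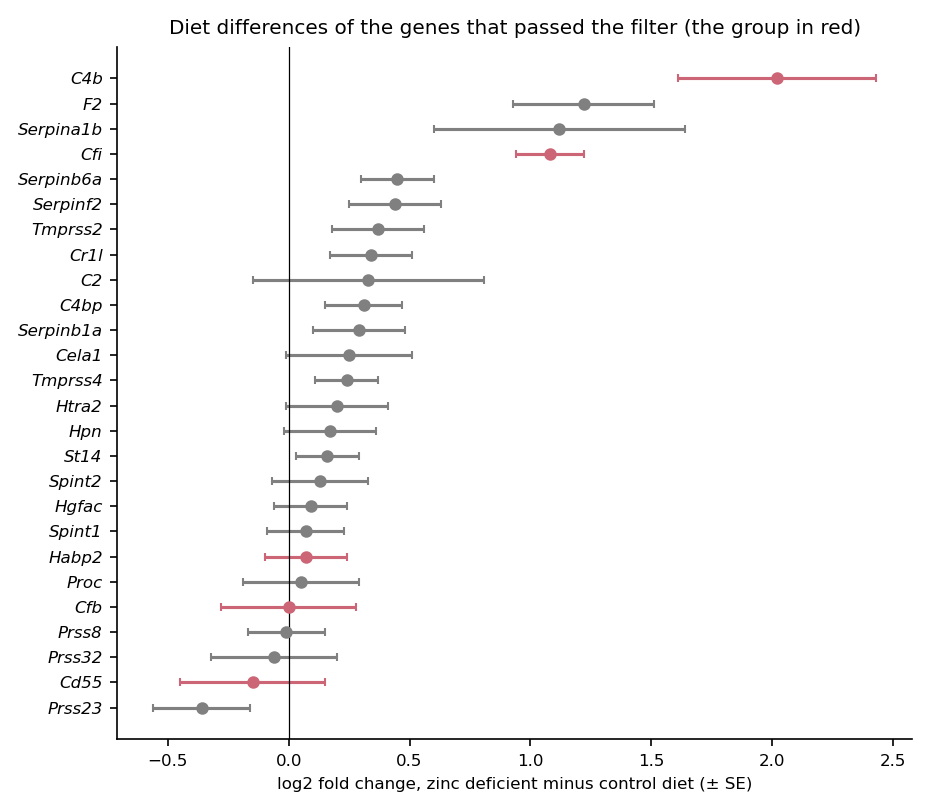
Log2 fold change, zinc deficient minus control diet, with its SE as bars, for the 26 genes of the complement and protease lists that passed the filter, with the group in red. C4b at 2.02, F2 at 1.22 and Cfi at 1.08 lie among the highest, and Habp2, Cfb and Cd55 lie near 0.

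The genes most like each member of the group across mice were looked up by Pearson's r of log2 level after the mean of each diet was subtracted, among genes that averaged 10 CPM or more. These are descriptions over 8 mice that share their libraries and scaling, out of about 5700 genes compared for each. Cfi was most like Pnliprp1 (r = 0.986), Sc5d (0.975) and Slc7a7 (0.967). C4b was most like Rab3gap2 (0.987), Fhip1b (0.975) and Pgap3 (0.957).

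Habp2 was most like Tmc6 (r = 0.948), Golph3l (0.940) and Nup205 (0.934). Cfb was most like Defa34 (0.974), Bex3 (0.962) and Lypd8 (0.952), and Cd55 was most like Arl2bp (0.943), Fbxo8 (0.937) and Mymx (0.933). No gene of the group appeared among the 3 most like genes of another. Between genes of the group, r within diets ran from -0.79 for Cfb and C4b to 0.56 for Cfi and C4b.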

How the data were processed

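The authors deposited raw read counts for each Ensembl gene identifier. Per the labels, RNA of sorted Paneth cells went through the Illumina TruSeq stranded mRNA kit, and the submitters' processing notes name FastQC 0.12.0, STAR 2.7.0a, DESeq2 and the mm39 build. Details of the counting program, its strand setting and the annotation release were not given in the sources used here. All 8 genes, the lists and the tests were chosen with earlier results of these data known. The group was selected on measured values, so its values are a description. An exact sign-flip permutation test of the 4 level differences was planned, but its p-values are not reported, since the pairs were chosen with results known and hold genes near 0. By rule, genes named beyond the group were those of the lists that passed the test or did not overlap between diets. The rule also named the 3 highest per length in each list and the 3 most like each member that passed the filter. Cell type markers were named to check the label. Other genes were named outside this rule, such as listed genes at or near 0 and genes that copy or overlap a member.

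Of 55414 identifiers, 54749 were found in GENCODE M39 on GRCm39. Those not found took at most 0.00991% of the counts of a mouse, 74 symbols were shared by several identifiers and were given to the one with the most counts, and 0 columns belonged to other samples. Libraries held 8557690 to 12648005 counts, so that 3 counts, taken as the limit for a gene with none, are 0.351 CPM in the smallest. Libraries of a diet differed beyond counting noise, with a chi-square per degree of freedom of 5.7 or more, and none was a duplicate. Whether replicates came from separate cages or sorting days is not given. The p-values set the difference between diets against the spread between these mice. They cannot separate diet from a cage or day that a diet may have shared.

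Diets were compared over all 8 mice with edgeR 4.0.16 in R 4.3.3 (TMM, filterByExpr, robust quasi-likelihood fit, Benjamini-Hochberg over 10911 genes, threshold 0.05), and with DESeq2 1.42.0 as the alternative. The fit was tested on simulated data. SEs of log2 fold changes are the log2 fold change over the square root of F. Level differences within a mouse used log2 of the scaled CPM plus 0.5 per kb of summed exons, in Python 3.11.15. Of the 8 genes, 5 have an entry in the promoter table, and no promoter is shown. Alternatives are in the closing section. The length of 1 transcript per gene and the C3 ratios without each zinc deficient mouse were added after seeing the data.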

Additional observations from a re-analysis of the deposited data

Results flagged for a closer look

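In control replicate 2, C3 stood apart from the other 3 control mice at 0.082 scaled CPM, which is 1 count against 0 in each of the others. In control replicate 1, C4bp stood apart at 65.2 scaled CPM, below 98.1 to 102 in the other control mice, and that library also had the highest TMM factor, 1.57, whose part in this value was not tested. These are 2 of 56 groups of 4 mice looked at. Chance flags about 1 in 20 such groups where values lie well above 0. That rate does not hold for groups near 0, since a single count among 0s, as in C3, is always flagged.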

How the results depend on the processing

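The 44 genes called became 11 by library size alone, 25 without the robust option, 146 with DESeq2 and 251 without the filter, and 8 to 36 when 1 mouse was left out (8 without control replicate 2 and without control replicate 4, 13 without zinc deficient replicate 2). Of the calls, 36.4% were higher on the zinc deficient diet, against 45.5% by library size alone, 56% without the robust option and 75% without zinc deficient replicate 3. The 1 gene of the group called became 0 by library size alone, 2 without the robust option and with DESeq2 (Cfi and C4b), 3 without the filter (with C3, log2 fold change 4.60, adjusted p = 0.0302), and 1 to 2 when 1 mouse was left out. For C4b the edgeR adjusted p ran from 0.00962 without zinc deficient replicate 1 to 0.289 without control replicate 2, and in the main comparison it was 0.078. The 0 other complement and protease genes called became 1 (F2) with DESeq2 and without the filter, and stayed at 0 when 1 mouse was left out. The causes were not tested.

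In control mice only, the log2 differences were -3.70 for C3 and Cfb, -3.05 for C3 and C4b, 7.51 for Cfi and C3 and 3.13 for Cd55 and Cd46. No pair changed direction with another pseudocount, without length, by the length of 1 transcript or without any 1 mouse.

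Same-numbered mice of the diets deviated together with r of 0.015 to 0.100 across genes, and differently numbered mice with r of -0.195 to 0.164. Values this small cannot tell whether the numbers pair the mice. With the replicate number as a block, 53 genes were called, 36 of them among the 44, and the group kept 1 call, Cfi, with a log2 fold change of 1.07. The block gave 0 calls among the other complement and protease genes.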
